A study of Mus musculus with 14 samples.

Results

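The comparison described here is the rate at which metabolic label left each RNA in paused Mettl3-KO mouse embryonic stem cells relative to WT cells. It used the 12 libraries with at least 1000000 total counts, of 14 in all, and the 12669 genes, of 36335, that reached 10 conversion counts in 3 or more of those libraries. Of Mettl3-KO there were 2 libraries each at 0, 1 and 8 h of chase and 1 at 3 h, and of WT there were 2 at 8 h and 1 each at 0, 1 and 3 h. Both genotypes are of the E14 mouse embryonic stem cell line, and both were held for 2 weeks on gelatin in serum with LIF and INK128 at 200 nM, which blocks the mTOR kinase. All cells then took up 100 µM S4U for 12 h, with an exchange of medium every 3 h, and were moved to medium without S4U for the chase. The labels do not give the Mettl3 allele, nor whether the Mettl3-KO line is 1 clone.

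METTL3 is the catalytic subunit of the nuclear complex that writes N6-methyladenosine (m6A) on mRNA. YTH-domain proteins bind m6A, and cytoplasmic members of that family recruit deadenylases, so that many methylated mRNAs are short-lived. Embryonic stem cells in which mTOR is inhibited enter a reversible paused state in which growth, transcription and translation are lowered. In SLAM-seq, S4U is built into new RNA, iodoacetamide makes it read as C in place of T, and the loss of T>C conversions after the chase begins follows the loss of the RNA that was made before it. The values below are conversion counts per unit of total RNA of the library. A loss rate difference is the slope over hours in Mettl3-KO minus that in WT, in log2 per hour, so a value above 0 means slower loss in Mettl3-KO. The relative difference of a gene is its loss rate difference minus the median over all 12669 genes, and "slower" and "faster" alone mean calls against that median (edgeR quasi-likelihood test, Benjamini-Hochberg adjusted p under 0.05).

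Mettl3 itself was nearly absent from the Mettl3-KO libraries. It had 1.46 and 1.70 CPM at 0 h, 2.50 and 1.81 at 1 h, 2.15 at 3 h and 1.27 and 1.28 at 8 h in Mettl3-KO, against 43.5, 78.4, 55.0, 32.1 and 23.6 CPM in the 5 WT libraries. The groups did not overlap. With 24, 27, 55, 34, 48, 14 and 32 reads the Mettl3-KO libraries held Mettl3 RNA at a low level, and its relative difference of 0.32 was not called (edgeR adjusted p = 0.633). Total counts were between 11136381 and 26654217 in Mettl3-KO and between 6108102 and 18086911 in WT. The libraries left out, Mettl3-KO 3 h replicate 2 and WT 1 h replicate 2, had 602297 and 49154. All 8 embryonic stem cell markers checked were present in every library, and their summed total RNA was between 2620 and 4729 CPM in Mettl3-KO and between 3562 and 4634 CPM in WT. Neural markers summed to between 501 and 782 CPM in Mettl3-KO and between 82.3 and 103 CPM in WT, and endoderm markers to between 11.8 and 20.4 CPM in Mettl3-KO and between 27.5 and 36.5 CPM in WT. Mesoderm and trophoblast markers summed to between 7.36 and 10.6 CPM in Mettl3-KO and between 7.28 and 11.7 CPM in WT, with Elf5 at 0 in both, and fibroblast markers to between 3.90 and 9.44 CPM in Mettl3-KO and, with Lum at 0, to between 9.28 and 20.7 CPM in WT. The part of these cells in the loss rates was not tested. The labels name the source of the Mettl3-KO 8 h libraries E15 and E16 where all others have E14, while the cell line is given as E14 throughout. Separate cultures are not stated for replicates, and p-values thus cover the spread of these libraries alone, which may be technical. In bulk samples, fewer cells with an RNA and less of it per cell cannot be told apart.

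The loss of label was slower in Mettl3-KO across most of the genome. The median loss rate difference was 0.104 log2 per hour, with quartiles of -0.03 and 0.26, and 8862 of 12669 genes (70.0%) lay above 0. The median slope was -0.471 log2 per hour in Mettl3-KO and -0.565 in WT, which are half-lives of 2.12 h and 1.77 h with no correction for cell division. The whole-library labelled share, the conversion counts per total count, was 26.1% and 26.6% at 0 h, 25.2% and 26.7% at 1 h, 18.5% at 3 h and 4.90% and 4.97% at 8 h in Mettl3-KO. The WT libraries had 39.4%, 30.8% and 19.9% at 0, 1 and 3 h, and 4.52% and 3.72% at 8 h. Mettl3-KO libraries were thus lower than WT at 0, 1 and 3 h and higher at 8 h. Per gene, the median log2 difference of labelled RNA, Mettl3-KO minus WT, was -0.59 at the start, -0.09 after 1 h, 0.04 after 3 h and 0.32 after 8 h. The start and the slope come from the same fit, so a lower start and a slower loss are not separate measurements, and a shift shared by all genes of a library enters every gene's value alike. This is why each gene is set against the median in what follows.

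**Figure D1:**
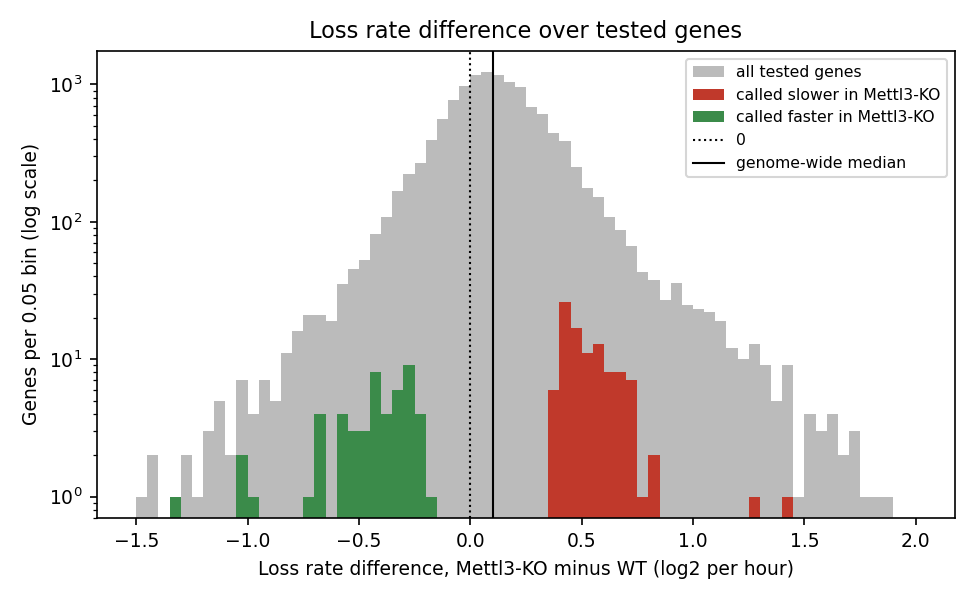
Loss rate difference of 12669 genes, Mettl3-KO minus WT, in log2 per hour on the x axis and the number of genes on a log y axis. The dotted line marks 0 and the solid line the median of 0.104, and 70.0% of genes lie to the right of 0.

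Against the genome-wide median, 101 genes (0.797% of those tested) lost label more slowly in Mettl3-KO and 51 (0.403%) lost it faster, so that 1.2% of genes were called in either direction. Against 0, 685 genes (5.41%) were slower and 35 (0.276%) were faster. All 101 genes slower than the median were also slower than 0, and 31 of the 51 faster ones were also faster than 0. The relative differences of the called genes ran from 0.27 to 1.33 for slower genes, with a median of 0.41, and from -1.45 to -0.30 for faster genes, with a median of -0.50. The median standard error over all genes was 0.15. DESeq2 called 291 slower and 174 faster genes, which included all 101 and 49 of the 51. Scaling by TMM factors of the conversion counts themselves, which takes out shifts that a library's genes share, left a median of 0.0129, with 371 genes slower and 200 faster than 0, so that 64.97% of those calls were slower against 95.14% with the scaling used here.

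The number of calls rested on the 8 h libraries. Without Mettl3-KO 8 h replicate 2 there were 2 slower genes and 1 faster, without Mettl3-KO 8 h replicate 1 18 and 13, without WT 8 h replicate 2 34 and 55, and without WT 8 h replicate 1 50 and 116. Without WT 1 h replicate 1 there were 31 and 17, and without WT 0 h replicate 1 164 and 91. There were 67 and 34 when Mettl3-KO 0 h replicate 1 was left out, 64 and 32 for Mettl3-KO 1 h replicate 1, and 66 and 33 for Mettl3-KO 1 h replicate 2. The 3 calls that withstood the loss of Mettl3-KO 8 h replicate 2 were Timm8b and Nme6, both slower, and Nusap1, faster. With the 0, 1 and 3 h libraries only, 0 genes were slower and 1 was faster. With all 14 libraries 20 were slower and 21 faster.

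The slower genes kept more of their label to the end of the chase in Mettl3-KO than in WT. Their median labelled share was 9.10% in Mettl3-KO and 2.11% in WT at 8 h, and 29.1% and 43.6% at 0 h. Their median fitted half-life was 6.87 h in Mettl3-KO and 1.55 h in WT. The faster genes were the mirror image, with 1.08% in Mettl3-KO and 12.3% in WT at 8 h, 28.8% and 43.7% at 0 h, and half-lives of 1.58 h and 4.29 h. Over all genes the 8 h medians were 2.44% and 2.14%. The slower and faster genes were called from these same counts, so their shares and half-lives describe the calls and are not a separate result. Total RNA was higher in Mettl3-KO for 74 of the 101 slower genes (median log2 difference 0.27) and for 23 of the 51 faster genes (median -0.13). Over all tested genes it was higher for 6845 of 12669 (median 0.07). A share over 20% at 8 h was found for 12 slower genes, all in Mettl3-KO, and for 15 faster genes, all of them in WT and 1 also in Mettl3-KO. Over all tested genes 364 of 12669 had such a share in either genotype, so it was more frequent among called genes. In these counts, conversions from S4U and T>C differences of another origin cannot be told apart, so the shares and loss rates of such genes may not be those of labelled RNA. The leading ones are given apart from the others.

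Timm8b, a small chaperone that escorts proteins between the mitochondrial membranes, had the smallest p of all genes (chromosome 9, 50603901 to 50605320, GRCm38.p6). Its labelled share was 34.0% and 32.1% at 0 h, 32.3% and 37.6% at 1 h, 28.6% at 3 h and 14.5% and 13.8% at 8 h in Mettl3-KO, against 52.1%, 50.5%, 26.8% and 0.534% and 1.39% in WT at the same times. Mettl3-KO lay below WT at 0 and 1 h and far above it at 8 h, with no overlap between the genotypes at either end. The relative difference was 0.63 (SE 0.10, edgeR adjusted p = 0.000142), and the half-lives were 7.25 h in Mettl3-KO and 1.15 h in WT. It was called in 24 of 25 alternative analyses, all but the one without 8 h libraries.

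Gpx1, the glutathione peroxidase of the cytosol that removes peroxides (chromosome 9, 108339080 to 108340342), was also slower. Its share was 26.1% and 24.7% at 0 h, 25.5% and 24.8% at 1 h, 22.2% at 3 h and 12.4% and 11.5% at 8 h in Mettl3-KO, against 41.7%, 32.2%, 25.8% and 4.18% and 2.85% in WT. The relative difference was 0.34 (SE 0.07, edgeR adjusted p = 0.00807). Label hardly fell over the first 3 h of chase in Mettl3-KO, and the groups again changed order by 8 h. The call was lost without Mettl3-KO 8 h replicate 1, without Mettl3-KO 8 h replicate 2 or without WT 8 h replicate 2.

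The other leading slower genes also had shares of at most 20% at 8 h in both genotypes. They were Rps4l, a transcribed pseudogene of a ribosomal protein (0.38), 0610010K14Rik (0.55), Banf1, a DNA-bridging protein of the nuclear envelope (0.45), Higd2a, a factor for respiratory supercomplexes (0.44), D8Ertd738e (0.43), Dynll1, a dynein light chain (0.37), Mrpl46, of the mitochondrial ribosome (0.47), and Tubb6, a beta tubulin (0.65). Their edgeR adjusted p was between 0.00188 and 0.0136. Banf1 had 15.9% and 15.7% at 8 h in Mettl3-KO against 7.94% and 4.46% in WT, and Higd2a 13.99% and 17.3% against 6.79% and 2.18%. The conversion counts of 0610010K14Rik are identical to those of Gm21988, so the pair is 1 signal. All 8 calls were lost without Mettl3-KO 8 h replicate 2. In addition Banf1, Higd2a and Dynll1 lost theirs without WT 8 h replicate 2, D8Ertd738e and Tubb6 without WT 8 h replicate 1, and Dynll1 and Mrpl46 without Mettl3-KO 8 h replicate 1.

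Among the slower genes with a share over 20% at 8 h, Nme6, a nucleoside diphosphate kinase family member, had the smallest p. Its share was 54.4% and 52.6% at 0 h, 53.3% and 58.3% at 1 h, 47.4% at 3 h and 37.6% and 33.7% at 8 h in Mettl3-KO, against 46.7%, 34.2%, 9.43% and 0.595% and 1.28% in WT. Its relative difference was 0.62 (edgeR adjusted p = 0.00188). Vamp3, a vesicle SNARE, had 34.4% and 40.0% at 8 h in Mettl3-KO against 3.90% and 1.94% in WT, and Tubb2b, a beta tubulin, 20.9% and 22.1% against 5.57% and 7.31%. Both were called slower (0.50 and 0.41), and both calls were lost without Mettl3-KO 8 h replicate 2.

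Genes that lost label faster in Mettl3-KO were led, among those with shares of at most 20% at 8 h, by Avl9, a protein of late secretory transport (chromosome 6, 56714839 to 56761912). Its share was 30.3% and 35.3% at 0 h, 30.3% and 38.5% at 1 h, 20.05% at 3 h and 0% and 0.193% at 8 h in Mettl3-KO, against 59.1%, 33.6%, 10.3% and 17.8% and 11.3% in WT. The first Mettl3-KO 8 h value was 0 of 148 counts, which allows a share of up to 2.03%. Both Mettl3-KO libraries lay far below both WT libraries at 8 h, while at 3 h Mettl3-KO was above WT. The relative difference was -0.78 (SE 0.14, edgeR adjusted p = 0.00206). Half-lives were 1.11 h in Mettl3-KO and 4.35 h in WT. The call was lost without Mettl3-KO 8 h replicate 2, and with the 0, 1 and 3 h libraries alone the value was 0.10.

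Jmjd7, a JmjC-domain oxygenase (chromosome 2, 120027483 to 120032604), had 23.7% and 19.3% at 0 h, 20.3% and 20.4% at 1 h, 13.3% at 3 h and 0.784% and 0.528% at 8 h in Mettl3-KO. The WT libraries had 37.6%, 29.2%, 26.7% and 14.1% and 8.42%. Here the Mettl3-KO libraries were below WT at every time. The relative difference was -0.69 (SE 0.13, edgeR adjusted p = 0.00304). The long noncoding RNA 2410006H16Rik (chromosome 11, 62602877 to 62604806) showed the same order, with 3.82% and 2.60% at 8 h in Mettl3-KO against 10.96% and 9.96% in WT and 28.6% and 29.4% against 43.1% at 0 h (relative difference -0.39, SE 0.08, edgeR adjusted p = 0.00304). Without Mettl3-KO 8 h replicate 2 neither was called.

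Further faster genes were Rsad1 (-0.76), the pseudogene Gm4740 (-0.66), Snora20, a small nucleolar RNA that guides pseudouridylation (-0.76), Gm20605 (-0.50, with conversion counts identical to those of Lrch4), Cwf19l2 (-0.47), Cnih1, a cargo receptor for export from the endoplasmic reticulum (-0.41), and Cox7a2l (-0.37). Snora20 had 546 conversion counts over all libraries used. Its WT share was 32.3%, 20.3%, 39.8% and 17.9% at 0, 1, 3 and 8 h, so no steady loss was seen in WT. The calls of all 7 genes were lost without Mettl3-KO 8 h replicate 2. Those of Gm20605, Gm4740, Cwf19l2, Cox7a2l and Cnih1 were also lost without Mettl3-KO 8 h replicate 1, those of Cox7a2l and Cnih1 without WT 1 h replicate 1, and that of Rsad1 without WT 8 h replicate 1. Of those with a share over 20% at 8 h, Nusap1, a spindle microtubule protein, was at -0.69 (edgeR adjusted p = 0.000249), with 0.348% and 1.44% at 8 h in Mettl3-KO against 64.2% and 28.6% in WT. Its WT share was 51.7% at 0 h, 42.0% at 1 h and 25.2% at 3 h, so no steady loss was seen in WT. Txnl1, a thioredoxin-like protein, had 2.04% and 2.35% at 8 h in Mettl3-KO against 23.4% and 23.6% in WT, and Dhx35, an RNA helicase, 2.84% and 1.72% against 41.5% and 59.2%. Txnl1, Dhx35 and Bloc1s6, a subunit of a complex that forms lysosome-related organelles, were at -0.45, -0.55 and -0.61 and lost their calls without Mettl3-KO 8 h replicate 2.

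**Figure D2:**
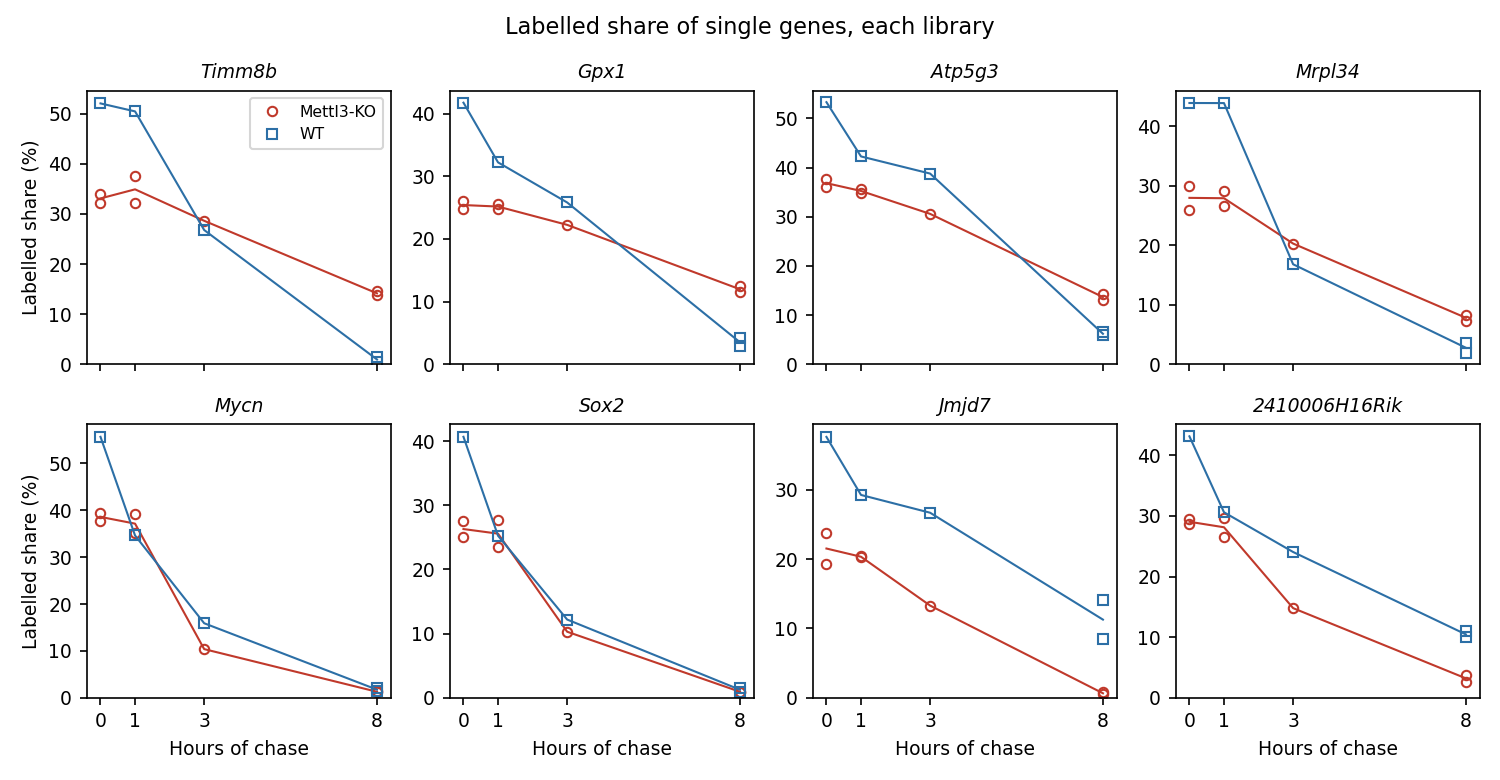
Labelled share in percent on the y axis against hours of chase (0, 1, 3 and 8) for Timm8b, Gpx1, Atp5g3, Mrpl34, Mycn, Sox2, Jmjd7 and 2410006H16Rik, with each library as a point (Mettl3-KO red circles, WT blue squares) and lines through the means. Mettl3-KO lies above WT at 8 h for Timm8b (14.5% and 13.8% against 0.534% and 1.39%) and below it for Jmjd7 (0.784% and 0.528% against 14.1% and 8.42%).

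Gene classes were described by how their measured members lay around the genome-wide median, for 45 lists. The nuclear-encoded parts of the mitochondrion lay above it. The respiratory chain pumps protons with electrons from food, and ATP synthase uses that gradient; most subunits are small proteins made in the cytosol and imported. Of 37 complex I subunits 35 lay above the genome-wide median (list median 0.10), of 14 subunits of complexes II and III 12 did (0.14), of 13 of complex IV 11 did (0.11), and of 17 of ATP synthase 15 did (0.11). By single-gene test 1, 2, 0 and 1 of them were slower in edgeR, beside 0.797% of all genes. At an unadjusted p under 0.05, 12, 4, 3 and 6 members lay above the median, where 1048 of 12669 genes did, and DESeq2 called 5, 4, 2 and 2. Against 0, edgeR called 12, 4, 5 and 6 members slower, where 5.41% of all genes were. Half-lives of the list's median slope were 7.86 h in Mettl3-KO and 2.74 h in WT for complex I, 5.97 h and 2.12 h for complexes II and III, and 10.9 h and 2.83 h for ATP synthase. For complex IV the values were 10.9 h in Mettl3-KO and 3.204 h in WT, and its list median was 0.01 with the 0, 1 and 3 h libraries only. These half-lives are of labelled RNA per unit of library total, so a change of total RNA over the chase enters them. In Mettl3-KO the summed ATP synthase share fell from 27.1% and 25.5% at 0 h to 9.74% and 9.95% at 8 h. In WT it fell from 39.8% to 8.08% and 6.88%. With the total count of each gene as the offset, list medians were 0.08 for complex I and 0.09 for complexes II and III.

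The summed labelled RNA of complex I subunits was 1126 and 1402 CPM at 0 h, 1323 and 1547 at 1 h, 1263 at 3 h and 684 and 665 at 8 h in Mettl3-KO, against 2439, 1619, 1246 and 362 and 308 CPM in WT. It was lower in Mettl3-KO at 0 h, about level with WT at 3 h and higher at 8 h. ATP synthase subunits had 1073 and 1253, 1306 and 1458, 1269, and 660 and 643 CPM at these times in Mettl3-KO, against 2305, 1403, 1213 and 414 and 286 CPM in WT. The order of the genotypes was again reversed between 0 h and 8 h, as it was for complex IV, with 747 and 1039 CPM at 0 h and 669 and 640 at 8 h in Mettl3-KO against 1821 and 356 and 301 CPM in WT.

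Atp5g3, which encodes the membrane ring of ATP synthase (chromosome 2, 73908447 to 73912464), had a share of 37.7% and 36.0% at 0 h, 34.8% and 35.7% at 1 h, 30.6% at 3 h and 13.1% and 14.3% at 8 h in Mettl3-KO, against 53.3%, 42.3%, 38.8% and 6.55% and 5.86% in WT. Its relative difference was 0.32 (SE 0.07, edgeR adjusted p = 0.015). Its fitted half-life, of labelled RNA per unit of library total, was 17.96 h in Mettl3-KO and 2.10 h in WT. The pooled share fell from 36.7% at 0 h to 13.9% at 8 h in Mettl3-KO. In WT it fell from 53.3% to 6.38%. The fitted 17.96 h is thus not a half-life of the share. The other called members were Uqcr10 (0.31) and Uqcrq (0.34) of complex III and Ndufb3 of complex I (0.34), with edgeR adjusted p between 0.0201 and 0.0276. The farthest member of complex I on the other side was Ndufs1, at -0.14 and not called. Cox7a2l went the other way from its list: it binds complex III to complex IV rather than being an enzyme subunit, and it was faster, with 14.9% and 18.2% at 0 h and 3.34% and 2.99% at 8 h in Mettl3-KO against 26.7% and 9.94% and 4.40% in WT. All 4 slower calls were lost without either Mettl3-KO 8 h library, so that without replicate 2 the counts for complex I, complexes II and III and ATP synthase were 0, 0 and 0. Without WT 8 h replicate 1 the calls of Atp5g3, Ndufb3 and Uqcrq were lost and without WT 8 h replicate 2 those of Atp5g3, Ndufb3 and Uqcr10. Without WT 1 h replicate 1 Ndufb3, Uqcrq and Cox7a2l lost theirs, without WT 0 h replicate 1 Uqcr10, without Mettl3-KO 1 h replicate 1 Uqcrq and without Mettl3-KO 1 h replicate 2 Ndufb3.

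Mitochondrial ribosomal proteins, which build the ribosome that translates the RNAs of the mitochondrial genome, held the most slower genes of any list. Of 76 measured 60 lay above the median (list median 0.10) and 7 were slower, with 0 faster by edgeR, beside 0.797% and 0.403% of all genes. At an unadjusted p under 0.05, 24 lay above the median and 2 below it, where 1048 and 868 of 12669 genes did. DESeq2 called 11 slower and 0 faster, where it called 291 and 174 of 12669 genes. The 7 were Mrpl46 (0.47), Mrpl34 (0.39), Mrpl58 (0.50), Mrpl43 (0.33), Mrpl20 (0.34), Mrpl27 (0.47) and Mrpl57 (0.38), all of the large subunit, except that Mrpl58 is a release factor that is also part of it. Against 0 there were 23, where 5.41% of all genes were slower. Summed labelled RNA was 2160 and 2361 CPM at 0 h, 2345 and 2818 at 1 h, 2132 at 3 h and 565 and 574 at 8 h in Mettl3-KO, against 2876, 1999, 1099 and 190 and 142 CPM in WT. Here Mettl3-KO was above WT from 1 h on.

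Mrpl34 (chromosome 8, 71464926 to 71465753) had a share of 25.9% and 30.0% at 0 h, 26.7% and 29.1% at 1 h, 20.3% at 3 h and 8.32% and 7.28% at 8 h in Mettl3-KO, against 43.9%, 43.8%, 16.8% and 1.90% and 3.64% in WT (relative difference 0.39, SE 0.09, edgeR adjusted p = 0.015). The list's count of slower genes was 0 without Mettl3-KO 8 h replicate 1 or replicate 2, 3 without WT 8 h replicate 1, 4 without WT 8 h replicate 2 and 1 without WT 1 h replicate 1. Mrps31, of the small subunit, lay farthest below the median, at -0.27, and was not called.

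Mitochondrial import genes encode the pores and chaperones that bring proteins into the organelle. Of 31 measured 26 lay above the median (list median 0.13) and 2 were slower, Timm8b and Timm10b, of which Timm10b is an inner membrane chaperone of the same kind (0.42, edgeR adjusted p = 0.0362). Of all genes 0.797% were slower by edgeR. At an unadjusted p under 0.05 there were 8 above and 0 below, where 1048 and 868 of 12669 genes were. By DESeq2 3 were slower, where 291 of 12669 genes were. Summed labelled RNA was 982 and 1122 CPM at 0 h and 284 and 318 at 8 h in Mettl3-KO, against 1706 and 146 and 124 CPM in WT. Timm10b lost its call without either Mettl3-KO 8 h library, either WT 8 h library, WT 0 h replicate 1, Mettl3-KO 0 h replicate 1 or Mettl3-KO 1 h replicate 1. Respiratory chain assembly factors, which do not stay in the finished complexes, lay closer to the median: 25 of 43 were above it (list median 0.03), and edgeR called 0, with 12 above and 0 below at an unadjusted p under 0.05 and 3 slower in DESeq2. Coa6, a copper factor for complex IV, was highest at 0.44 and Coa4 lowest at -0.27.

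**Figure D3:**
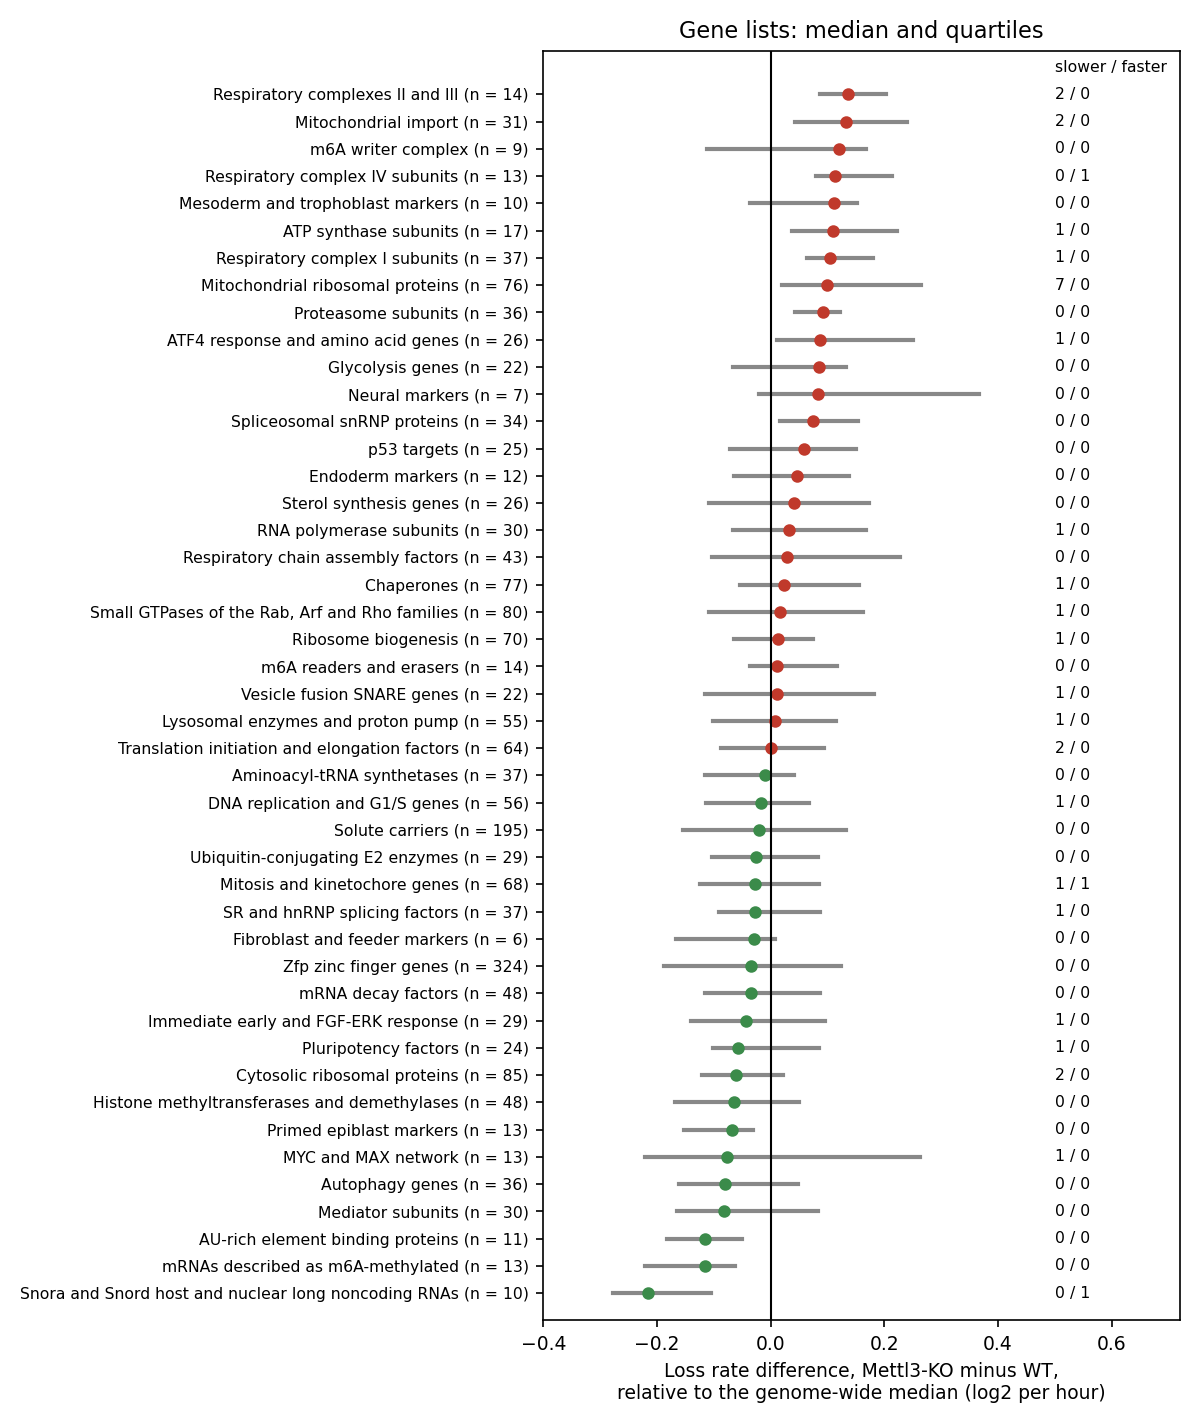
Relative loss rate difference, Mettl3-KO minus WT less the genome-wide median, in log2 per hour on the x axis for each gene list, with points at the list median, bars over the quartiles and, at the right, the numbers of slower and faster genes. Complexes I, II with III and IV, ATP synthase, import and mitochondrial ribosomal lists lie at 0.10 to 0.14, while cytosolic ribosomal proteins lie at -0.06 and noncoding RNAs at -0.22.

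Other lists above the median had few or no single calls. Of 36 proteasome subunits, which form the protease that degrades ubiquitin-tagged proteins, 30 lay above (list median 0.09), and of 34 spliceosomal snRNP proteins 26 did (0.07). In both edgeR called 0 genes, with 3 and 8 above the median at an unadjusted p under 0.05, where DESeq2 called 0 and 1. Over all 12669 genes 1048 lay above the median at that p. Psmb7 was highest in its list at 0.21 and Lsm6 in its own at 0.27. The proteasome median was 0.02 when offsets came from the total count of each gene, and the snRNP median 0.02 without WT 8 h replicate 2. Of 26 ATF4 response and amino acid genes, which respond to amino acid shortage, 21 lay above (0.09, or 0.02 with those offsets). Its 1 slower member, Eif4ebp1, encodes a repressor of translation initiation that mTOR inhibits (0.36, edgeR adjusted p = 0.03), and its call was lost without either Mettl3-KO 8 h library, WT 8 h replicate 2, WT 0 h replicate 1, WT 1 h replicate 1, Mettl3-KO 0 h replicate 1 or Mettl3-KO 1 h replicate 2.

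Cytosolic ribosomal proteins were on the other side of the median from the mitochondrial ones. Of 85 measured 26 lay above it (list median -0.06), while the half-life of their median slope was 7.76 h in Mettl3-KO and 6.05 h in WT. Their labelled RNA summed to 10002 and 9942 CPM at 0 h, 11343 and 13056 at 1 h, 9761 at 3 h and 5841 and 5904 at 8 h in Mettl3-KO, against 17278, 11176, 9987 and 7331 and 6090 CPM in WT. At 8 h Mettl3-KO was below WT, where the mitochondrial lists were above it. The 2 slower members were the pseudogene Rps4l and Rps27l, a paralog induced by p53 (0.31, lost without either Mettl3-KO 8 h library, WT 0 h replicate 1 or WT 8 h replicate 2), so both were relatives of the core genes rather than core genes. edgeR called 0 faster, with 7 below the median at an unadjusted p under 0.05, where 868 of 12669 genes were, while DESeq2 called 1. Near-identical pseudogene copies make the counts of ribosomal protein genes uncertain.

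**Figure D4:**
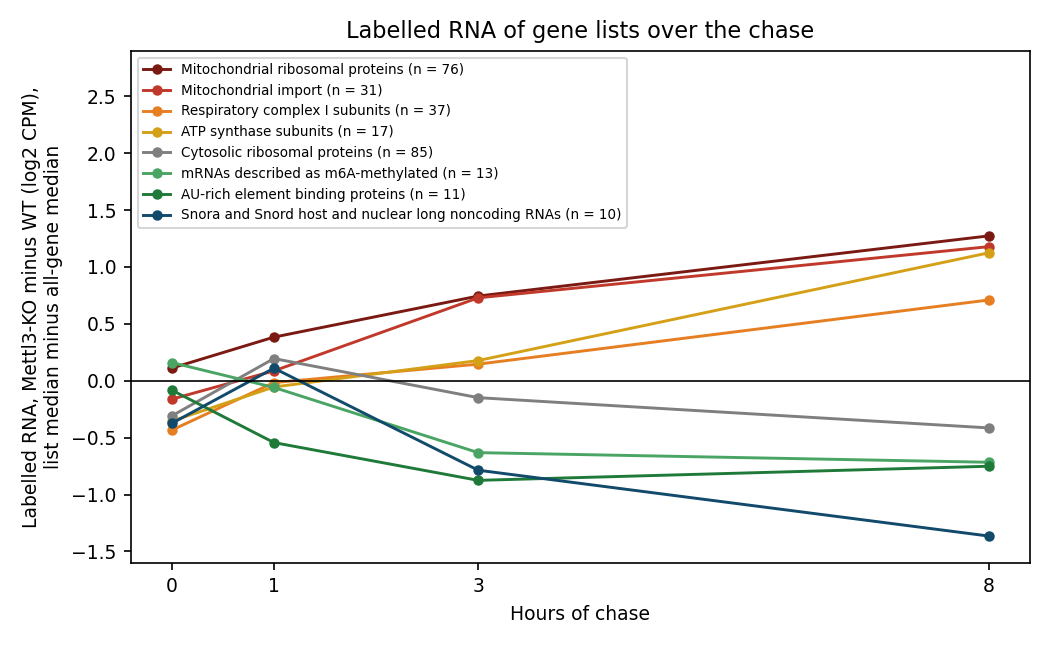
Log2 difference of labelled RNA, Mettl3-KO minus WT, as list median less the median of all genes on the y axis, against hours of chase for 8 lists. At 8 h mitochondrial ribosomal genes stand at 1.27, import genes at 1.18, ATP synthase at 1.12 and complex I at 0.71, while cytosolic ribosomal genes stand at -0.41, m6A-described mRNAs at -0.72, AU-rich binding proteins at -0.75 and noncoding RNAs at -1.36. Differences in total RNA are not taken out. In the same order their list medians are 0.45, 0.41, 0.50, 0.19, 0.13, -0.18, -0.40 and -0.08 log2, against 0.07 over all genes.

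The mRNAs described as m6A-methylated in embryonic stem cells were not among the slower genes. Of 13 measured 1, Klf4, lay above the genome-wide median (list median -0.11), and their median slope gave half-lives of 1.63 h in Mettl3-KO and 1.74 h in WT. edgeR called 0 of them in either direction, while 0 lay above and 2 below the median at an unadjusted p under 0.05. DESeq2 called 0 slower and 1 faster. Their labelled RNA summed to 2736 and 2479 CPM at 0 h, 2242 and 2807 at 1 h, 739 at 3 h and 163 and 156 at 8 h in Mettl3-KO, against 2565, 2211, 913 and 144 and 100 CPM in WT. At 0 h the WT sum lay between those of the Mettl3-KO libraries, where for the mitochondrial lists it lay above both. The sum was higher in Mettl3-KO at 1 and 8 h and lower at 3 h. The median member was lower in Mettl3-KO at every time, by log2 differences of -0.43 at the start, -0.15 after 1 h, -0.59 after 3 h and -0.39 after 8 h, and Klf4 held 84.8 and 67.1 CPM of the sums at 8 h in Mettl3-KO against 17.2 and 12.0 CPM in WT.

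Mycn, a MYC family transcription factor, had a share of 37.7% and 39.5% at 0 h, 35.2% and 39.1% at 1 h, 10.4% at 3 h and 1.16% and 1.43% at 8 h in Mettl3-KO, against 55.7%, 34.6%, 15.9% and 2.10% and 1.39% in WT. Its loss rate difference was -0.02 and its relative difference -0.13 (SE 0.08, edgeR adjusted p = 0.462). Label halved in 1.56 h in Mettl3-KO and in 1.62 h in WT. It was called in 0 of 25 alternatives, between -0.31 and 0.08. Sox2, a core pluripotency factor, had 27.6% and 24.98% at 0 h and 0.933% and 0.957% at 8 h in Mettl3-KO, against 40.7% and 1.56% and 0.964% in WT (relative difference -0.21, SE 0.07, edgeR adjusted p = 0.0965). Klf4, a Krüppel-like pluripotency factor, had a share of 13.7% and 10.99% at 8 h in Mettl3-KO against 1.77% and 1.48% in WT, but the share was also 35.3% and 35.7% against 32.1% at 0 h and 21.3% against 8.95% at 3 h. Its relative difference was 0.08 (SE 0.07, edgeR adjusted p = 0.61). When the total count of Klf4 itself served as the offset the value was 0.25 and called (edgeR adjusted p = 0.00128). Nanog was at -0.11, Myc at -0.22 and Pou5f1 at 0.09, none of them called (edgeR adjusted p between 0.541 and 0.722).

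By edgeR no gene of the m6A writer complex and no m6A reader or eraser was called slower or faster. Of 9 members of the writer complex 5 lay above the genome-wide median, among them Mettl3 itself, at 0.32 on 14 to 55 reads per Mettl3-KO library. The list median, with Mettl3 included, was 0.12, and -0.01 when offsets came from the total count of each gene. Of 14 readers and erasers 7 lay above the genome-wide median (list median 0.01). In both lists edgeR called 0 genes, with 1 above and 1 below at an unadjusted p under 0.05 in each. DESeq2 called 0 writers and 1 reader, faster. Among readers, Ythdf3, which recruits decay factors in the cytoplasm, was at 0.24 and Ythdc1, the nuclear reader, at -0.28 (edgeR adjusted p = 0.0829). Besides Mettl3 itself, Rbm15, which guides the writer complex to its targets, was at 0.22 and Mettl14, the partner of METTL3, at -0.21.

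Pluripotency factors as a class lay below the median, with 7 of 24 above it (list median -0.06) and half-lives of the median slope of 1.75 h in Mettl3-KO and 1.70 h in WT. The 1 slower member was Utf1, a chromatin-associated factor of pluripotent cells (0.28), whose call was lost in 9 of 12 fits without 1 library. Klf2 was at -0.26 (edgeR adjusted p = 0.0551), Tfcp2l1, a transcription factor of the naive state, at -0.29 (0.0728) and Prdm14, another, at -0.54 (0.1). These were picked after their values were seen, and no member of the list was called faster by edgeR. At an unadjusted p under 0.05, 2 members lay above the median and 4 below it, where 1048 and 868 of 12669 genes did. DESeq2 called 1 slower and 2 faster. Of 13 primed epiblast markers 2 lay above (list median -0.07), and edgeR called 0, with 0 above and 1 below at an unadjusted p under 0.05, as DESeq2 called 0. Of 13 genes of the MYC and MAX network 5 lay above (-0.08) and 1 was slower, Bmyc, a MYC relative that lacks the DNA-binding part (0.61). Its call was lost without either 8 h library of either genotype or without WT 1 h replicate 1, and the list median turned to 0.12 without WT 8 h replicate 1.

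Several lists of regulators of transcription and RNA lay below the median, as did autophagy genes. Not all lists of this kind did, since 17 of 30 RNA polymerase subunits lay above it (list median 0.03), as did most snRNP proteins. Of 11 proteins that bind AU-rich and related elements in mRNA 2 lay above (list median -0.11), with Khsrp, a decay-promoting protein, highest at 0.25 and Elavl2, a stabilizing one, lowest at -0.29 (edgeR adjusted p = 0.0953). Of 324 Zfp genes 143 lay above (-0.03), of 48 histone methyltransferases and demethylases 15 did (-0.06), of 30 Mediator subunits 10 did (-0.08) and of 36 autophagy genes 11 did (-0.08). The Mediator median turned to 0.10 with the 0, 1 and 3 h libraries only and was also above 0 by limma on the authors' normalized values, and that of the AU-rich list was -0.02 without WT 8 h replicate 1. In these 5 lists edgeR called 0 genes, while at an unadjusted p under 0.05 1, 13, 1, 0 and 1 lay above the median, where 1048 of 12669 genes did, and 3, 37, 5, 5 and 4 below it, where 868 did. DESeq2 called 0, 0, 1, 0 and 1 slower and 0, 5, 0, 1 and 2 faster.

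Noncoding RNAs that host small nucleolar RNAs or stay in the nucleus lay lowest of all lists. Of 10 measured 0 were above the genome-wide median (list median -0.22), and their median slope gave half-lives of 2.49 h in Mettl3-KO and 2.99 h in WT. Their summed labelled RNA was 530 and 489 CPM at 0 h, 522 and 672 at 1 h, 196 at 3 h and 106 and 70.6 at 8 h in Mettl3-KO, against 947, 629, 345 and 141 and 239 CPM in WT. Mettl3-KO was the lower at 0, 3 and 8 h. The 1 faster member was Snhg20 (-0.31, SE 0.08, edgeR adjusted p = 0.0275), and DESeq2 called 2. Its call was lost without either Mettl3-KO 8 h library, WT 8 h replicate 2, WT 1 h replicate 1 or Mettl3-KO 0 h replicate 2. Gas5, a growth-arrest host gene whose spliced RNA is degraded when translated, was at -0.23 with half-lives of 3.38 h in Mettl3-KO and 5.94 h in WT, and Snhg1 was at -0.05. Over all genes that RefSeq names snoRNAs, 37 were tested, their median was -0.15 and 2 were faster, Snora20 and Snora81 (-0.37). Of all genes 0.403% were faster.

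The remaining lists stayed between -0.04 and 0.11 and showed no common direction. Translation factors had 33 of 64 members above the median with 2 slower, Eif5a, an elongation factor (0.29), and Eif4ebp1, a repressor included by its name, and Eif5a stood at -0.01 when its total count was the offset. Ribosome biogenesis genes had 39 of 70 above with 1 slower, the nucleolar protein Ncl (0.28, edgeR adjusted p = 0.015). Mitosis genes had 27 of 68 above with 1 slower, the kinetochore protein Ndc80 (0.56, with 39.4% and 41.4% label at 8 h in Mettl3-KO against 1.31% and 0.348% in WT), and 1 faster, Nusap1. Single slower genes were also found among lysosomal genes (Fuca1, a fucosidase, 0.54), DNA replication genes (Tk1, a thymidine kinase, 0.45), chaperones (Hspb1, a small heat shock protein, 0.32), RNA polymerase subunits (Polr1d, 0.35), immediate early genes (Jund, 0.40), splicing factors (U2af2, 0.34), small GTPases (Rab4b, 0.50, with counts identical to those of Gm21983) and SNAREs (Vamp3). Each of the calls named in this paragraph except Nusap1 was lost without Mettl3-KO 8 h replicate 2.

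Lists of this remainder with 0 calls by edgeR were aminoacyl-tRNA synthetases (15 of 37 above the median), solute carriers (92 of 195), mRNA decay factors (19 of 48), E2 enzymes (14 of 29), glycolysis (13 of 22), sterol synthesis (17 of 26) and p53 targets (15 of 25). At an unadjusted p under 0.05 they had 1, 17, 0, 1, 3, 1 and 1 members above and 0, 18, 2, 0, 0, 3 and 1 below. Over all 12669 genes 1048 lay above and 868 below at that p. DESeq2 called 2 solute carriers slower and 4 faster and 2 glycolysis genes slower, and 0 in the other 5 lists. Exosc3, of the RNA exosome, and Dcp1b, of the decapping complex, marked the ends of the decay factor list at 0.28 and -0.38. Of the marker lists of other cell types, edgeR called 0 genes among 12 endoderm, 7 neural, 10 mesoderm and trophoblast and 6 fibroblast genes tested. At an unadjusted p under 0.05 there was 1 neural gene above and 1 mesoderm and trophoblast gene below the median, and DESeq2 called 1 mesoderm and trophoblast gene faster.

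The relative difference moved with the length of the gene. Genes were divided into 5 equal bins by their genomic span in RefSeq, which was available for 12175 of 12669. In the shortest bin, spans of 57 to 6695 bases, the median relative difference was 0.04 and 55 genes were slower and 11 faster. The next bins had 26 slower and 8 faster, 11 and 10, and 4 and 12. In the longest bin, from 65246 bases up, the median was -0.04 and 1 gene was slower and 6 faster. The median span was 5247 bases for slower genes, 24046 for faster genes and 22031 for all. Several lists above hold short genes. The median span was 7610 bases for mitochondrial ribosomal genes, 7798 for complex I, 7131 for ATP synthase, 8481 for import genes, 3137 for cytosolic ribosomal genes and 7145 for m6A-described mRNAs. Within the shortest bin, 28 of 34 mitochondrial ribosomal genes (median 0.12), 12 of 12 complex I genes (0.11), 7 of 7 ATP synthase genes (0.17) and 12 of 14 import genes (0.16) lay above the genome-wide median. In the same bin 24 of 79 cytosolic ribosomal genes (median -0.06), 1 of 6 m6A-described mRNAs (-0.22), 0 of 8 noncoding RNAs (-0.17) and 4 of 17 immediate early genes (-0.11) did. The lists also differ in span within that bin, and the part of span in their medians was not tested.

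**Figure D5:**
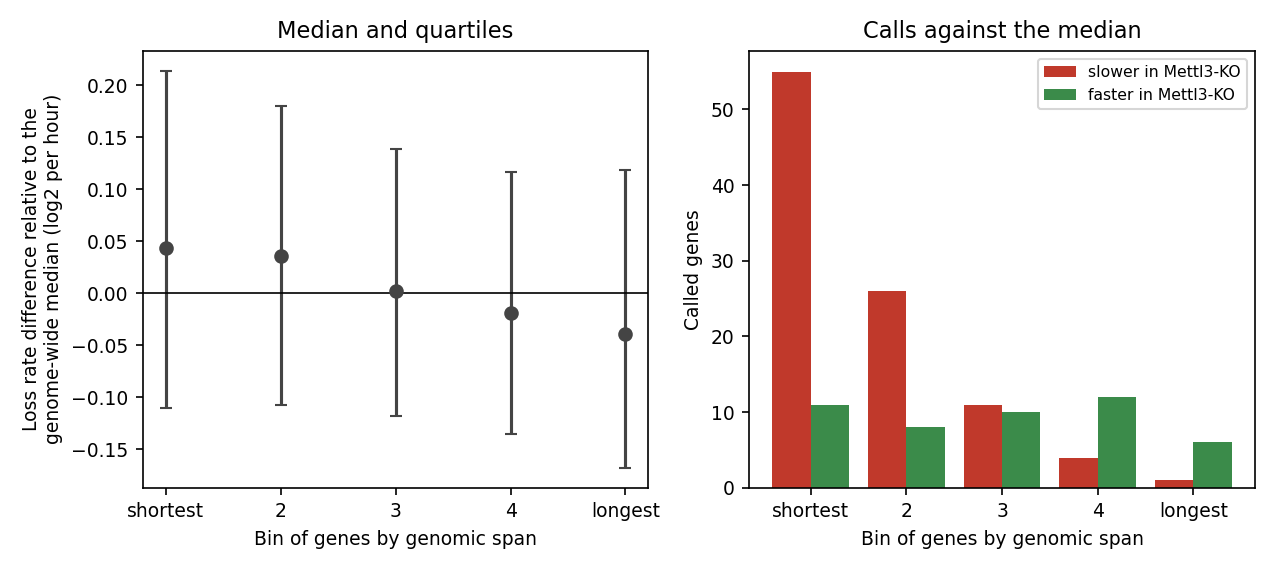
Left, relative loss rate difference in log2 per hour (median and quartiles) for 5 bins of tested genes by genomic span, shortest to longest. Right, the number of genes called slower (red) and faster (green) in Mettl3-KO in each bin, which for slower genes is 55, 26, 11, 4 and 1.

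The calls also moved with how strongly a gene was expressed. By 5 equal bins of mean total CPM, lowest to highest, 0, 4, 10, 19 and 68 genes were slower and 3, 5, 18, 8 and 17 faster. The medians of the relative difference in these bins were between -0.01 and 0.04. By WT half-life, the median relative difference was 0.28 in the shortest-lived of 5 bins and -0.15 in the longest-lived, which held 38 of the 51 faster genes, but the WT slope is itself a term of the difference, so this is no separate measurement. Fewer counts stand behind the genes of the lower expression bins, and the absence of a call there does not show that a loss rate was equal.

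In the authors' deposited table of half-lives, which has no unit, 6980 of the tested genes are listed, among them 3 of the 101 slower and 19 of the 51 faster genes. The authors' deposited table gives a longer half-life in Mettl3-KO for 3 of the 3, 0 of the 19 and 5823 of the 6980 genes. Its medians over the 6980 are 2.52 in Mettl3-KO and 1.69 in WT. For Jmjd7 the authors' deposited table has 1.89 in Mettl3-KO and 4.84 in WT, for Cox7a2l 3.85 and 4.10, and for Bmyc 8.56 and 1.105. For Mycn the authors' deposited table has 2.66 in Mettl3-KO and 1.54 in WT and for Nanog 2.28 and 1.55, where the counts gave 1.56 h and 1.62 h for Mycn. The table lists a larger share of the faster genes than of the slower ones.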

How the data were processed

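SLAM-seq 3′ end libraries were made from RNA treated with 10 mM iodoacetamide (100 ng per library), per the labels' protocols. The authors deposited whole-number counts per gene in total and of T>C conversions. They also deposited log2 normalized values, used as an alternative, and a table of other values, half-lives with no unit. Trim Galore 0.4.0, featureCounts, Subread 1.5.0, edgeR 3.32.1 and mm10 are named in the submitters' processing notes. Not given in the sources used here are the aligner, the calling of conversions and whether conversions count reads or bases. For 28 tested genes a library holds more conversions than total counts.

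Conversion counts were fitted with edgeR 4.0.16 (R 4.3.3, robust quasi-likelihood) on genotype, hours and their interaction, with offsets from TMM-scaled total counts. The test was repeated with the median interaction placed in the offset. WT has 1 library at 0, 1 and 3 h, so all libraries share 1 spread. The entry without a name, 0.00707% to 0.0312% of counts, was left out. Standard errors are the effect over the square root of F. Labelled CPM values use TMM-scaled totals, and log2 means a prior count of 2. Alternatives used DESeq2 1.42.0, limma 3.58.1, other scalings, filters, libraries and a replicate block. The fit was tested on simulated data with 50 genes changed at each size. It called 2 of 50 at a shift of 0.25 log2 per hour and 0 of 50 at -0.25. At 0.5 and -0.5 it called 31 and 19 of 50. Shifts of the size of the list medians can thus go without a call, and the absence of a call does not show an equal loss rate. For genes whose shares are printed, 95% Wilson intervals were at most 18.2 percentage points wide (Snora20), 17.3 for Dhx35, 12.3 for Nme6, 8.37 for Timm8b, 2.76 for Gpx1 and 1.5 for Sox2. Limits for a count of 0 are 3 counts of the total, and both cover counting error only.

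Named were Mettl3, the 10 genes per direction with the smallest p against the median and shares of at most 20% at 8 h, the 4 above 20%, up to 4 called members per list and direction or else the farthest member each way, and Pou5f1, Sox2, Klf4, Nanog, Myc and Mycn. Klf2, Tfcp2l1, Prdm14, Gas5, Snhg1, Snora81, Mrpl20, Mrpl27 and Mrpl57 were chosen after their values were seen. Ndufs1, Mrps31 and Rbm15 were also named outside the rule. The lists and the genes compared were chosen with earlier results of these data known. RefSeq on GRCm38.p6 (mm10) gave gene positions, spans and classes. Replicates of 1 group differed by more than sampling noise. RNAs of the mitochondrial genome were not analysed here.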

Additional observations from a re-analysis of the deposited data

Results flagged for a closer look

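The 2 counts and the genes below are results in which the loss rate of Mettl3-KO and WT cells differed by the test of the difference itself, here against the genome-wide median. There were 101 slower and 51 faster genes. Values are loss rate differences, Mettl3-KO minus WT, in log2 per hour and not relative to the median of 0.104.

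Among slower genes with shares of at most 20% at 8 h, Timm8b was at 0.73, Rps4l at 0.48, 0610010K14Rik at 0.66, Banf1 at 0.56, Higd2a at 0.55, D8Ertd738e at 0.54, Gpx1 at 0.44, Dynll1 at 0.47, Mrpl46 at 0.58 and Tubb6 at 0.75. Those with a share over 20% at 8 h were Nme6 at 0.73, Tubb2b at 0.52, Gm21988 at 0.66 and Vamp3 at 0.61. Among faster genes, Avl9 was at -0.67, Jmjd7 at -0.59, 2410006H16Rik at -0.28, Rsad1 at -0.65, Gm20605 at -0.40, Gm4740 at -0.56, Snora20 at -0.66, Cwf19l2 at -0.37, Cox7a2l at -0.27 and Cnih1 at -0.31. Those with a share over 20% were Nusap1 at -0.58, Txnl1 at -0.34, Dhx35 at -0.44 and Bloc1s6 at -0.50.

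In the gene lists, mitochondrial members were Mrpl34 at 0.49, Mrpl58 at 0.61, Mrpl43 at 0.44, Ndufb3 at 0.45, Uqcr10 at 0.42, Uqcrq at 0.44, Atp5g3 at 0.42 and Timm10b at 0.53. Members of other lists were Bmyc at 0.71, Utf1 at 0.39, Jund at 0.50, Rps27l at 0.41, Polr1d at 0.45, U2af2 at 0.45, Eif5a at 0.40, Eif4ebp1 at 0.46, Ncl at 0.38, Fuca1 at 0.65, Tk1 at 0.56, Ndc80 at 0.66, Hspb1 at 0.43, Rab4b at 0.61 and Snhg20 at -0.21.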

How the results depend on the processing

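Counts are slower and faster than the median, then slower and faster than 0, then the median difference. They were 325, 219, 371, 200 and 0.0129 with TMM factors of the conversion counts, and 436, 200, 2870, 122 and 0.160 when limma was run on the normalized values the authors deposited. The first 4 were 291, 174, 1071 and 69 by DESeq2. With all 14 libraries they were 20 and 21 against the median and 283 slower than 0. The 0, 1 and 3 h libraries alone gave 0, 1, 0 and 0 with a median of 0.211. Without the 0 h libraries 153 genes were slower than the median and 374 slower than 0, with a median of 0.0692. Without genes over 20% at 8 h, 30 were faster than the median. The 0 h and 8 h libraries alone, chosen after seeing the data, gave 34, 6, 397 and 3. Leaving out 1 library at a time gave 2 to 164 slower and 1 to 116 faster than the median, 295 to 812 slower and 3 to 69 faster than 0, and medians of 0.0873 to 0.145. The cause of these moves was not tested beyond the smaller number of libraries. RLE scaling and the other count filters stayed within 1.5 times. Eif5a turned to -0.0124 with its own total count as the offset. With the 0, 1 and 3 h libraries alone Banf1 turned to -0.17, Avl9 to 0.10, Bmyc to -0.12, Utf1 to -0.12, Jund to -0.37, U2af2 to -0.32, Eif5a to -0.11 and Ndc80 to -0.14. With the replicate number as a block, 105 genes were slower and 47 faster than the median and 596 and 28 than 0, with a median of 0.0978. The numbers did not pair the libraries, since same-numbered libraries' deviations correlated at -0.0822 to 0.0422. The medians of the complex I (0.08 to 0.14), import (0.08 to 0.17), mitochondrial ribosomal (0.09 to 0.20), cytosolic ribosomal (-0.10 to -0.02), m6A-described (-0.15 to -0.07) and noncoding RNA (-0.26 to -0.14) lists kept their sign in all 25 alternatives. So did those of complex IV (0.0056 to 0.17), the proteasome (0.02 to 0.14), ATF4 genes (0.02 to 0.15), snRNP proteins (0.02 to 0.15), AU-rich binding proteins (-0.21 to -0.02) and autophagy genes (-0.11 to -0.007), though near 0 at one end. Mediator subunits (-0.12 to 0.10) and the MYC and MAX network (-0.15 to 0.12) did not. Fewer calls were made among weakly expressed genes, and the part of depth in this was not tested.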

Other observations

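The authors' deposited normalized values carry a library scale that differs between the libraries. Over 1122 genes, the antilog of the authors' normalized value divided by the deposited conversion count, times the total count over 1000000, was 14.5 and 10.5 in the Mettl3-KO 8 h libraries and 6.71 and 6.51 in the WT 8 h libraries. It was 12.7 in Mettl3-KO 3 h replicate 2 and between 6.23 and 8.23 in the other libraries. The part of this scale in the median of 0.160 by limma on the authors' values, against 0.104 from the counts, was not tested.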
